A study of Mus musculus with 3 samples.

Results

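Of the 12436 TBX5 peaks of the mouse embryonic heart, 2905 were active promoter peaks, and 1341 of these overlapped a region bound by TBX3, a related T-box repressor. These 1341 shared active promoter peaks were chosen by the class and the TBX3 overlap that the authors' deposited table gives for each peak, and they made up 46.2% of the active promoter peaks. The other 1564 active promoter peaks, without TBX3 overlap, served for comparison. A peak is in the active promoter class when its summit lies within 2000 bp of a transcription start and at least 1 of the histone marks H3K4me3, H3K27ac and H3K9ac is present without H3K27me3. That description was worked out from the table, which cannot tell whether H3K9me3 also excludes a peak. The tissue and stage of the TBX3 and histone regions, and the rule for an overlap, are unknown from the sources used here.

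Chromatin came from whole hearts of embryos of the outbred CD-1 stock at embryonic day 14.5. It was precipitated with an anti-TBX5 antibody in 2 biological replicates, and 1 input sample was not precipitated. No genotype, transgene or treatment is named in the labels, and the number of hearts in a replicate is not given there. Both replicates were pooled before peaks were called, so no value exists per replicate. No comparison below could be tested against the spread between hearts, and no p-value is given. Intervals cover counting error, or treat peaks as independent, which neighbouring peaks are not.

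TBX5 and TBX3 belong to the T-box family, whose members recognise short DNA elements around a common core. TBX5 activates genes of the working heart muscle of atria and ventricles and of the conduction system, and its loss of function causes Holt-Oram syndrome. TBX3 is a repressor of the sinoatrial node and the atrioventricular conduction system, where it holds back genes of the working muscle such as natriuretic peptide and connexin genes. Active promoters carry H3K4me3 next to the start, whereas H3K4me1 marks enhancers and the flanks of promoters.

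The DNA under the shared summits is shown first for the 6 member promoters of highest fold whose summit lies upstream of a start inside the RefSeq promoter table of GRCm38.p6, the assembly that mm10 names. They show the DNA at the strongest shared peaks upstream of a start in that table, and each run covers up to 50 bases on either side of the summit, cut at the edge of the table and at the start. They come from chr6:119196586-119196659 (minus strand) for Cacna1c, chr1:75399835-75399905 (plus) for Speg, chr7:81567040-81567139 (minus) for Fsd2, chr8:72646461-72646534 (plus) for Nwd1, chr11:93995865-93995964 (plus) for Spag9 and chr2:140395373-140395429 (plus) for Macrod2. All run from 5′ to 3′ on the strand of the gene. Capitals mark matches on either strand to the T-box core GGTGTG, the TEAD core GGAATG, the GC box GGGCGG of SP and KLF factors or the CCAATC form of the NFY box. Matches to GATA, MEF2 and CRE letters were searched too, and these 6 runs hold none. The short NK homeobox core AAGTG is not marked by capitals. It stands in the Fsd2 run on both strands and in the Spag9 run on the reverse strand.
Cacna1c: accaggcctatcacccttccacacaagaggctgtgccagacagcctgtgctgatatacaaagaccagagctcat
Speg: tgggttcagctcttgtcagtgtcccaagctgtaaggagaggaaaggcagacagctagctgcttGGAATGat
Fsd2: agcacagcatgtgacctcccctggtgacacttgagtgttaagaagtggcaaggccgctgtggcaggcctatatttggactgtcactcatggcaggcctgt
Nwd1: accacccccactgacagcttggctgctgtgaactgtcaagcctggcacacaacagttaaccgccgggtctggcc
Spag9: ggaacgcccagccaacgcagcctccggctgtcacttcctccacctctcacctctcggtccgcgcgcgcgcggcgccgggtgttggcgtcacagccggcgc
Macrod2: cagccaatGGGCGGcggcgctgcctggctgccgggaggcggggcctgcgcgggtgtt

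None of the 6 runs holds the exact core GGTGTG or its complement CACACC. Speg has a TEAD core 45 bases downstream of its summit, and Macrod2 has a GC box 39 bases upstream of its summit. For contrast, 3 shared promoters with the core near the summit follow, the 3 of highest fold among those with a match within 50 bases, a set chosen after the values were seen. They lie at chr4:42949672-42949771 (plus) for Dnajb5, chr8:71464795-71464894 (plus) for Mrpl34 and chr8:120537338-120537408 (plus) for Gse1, with the same capitals.
Dnajb5: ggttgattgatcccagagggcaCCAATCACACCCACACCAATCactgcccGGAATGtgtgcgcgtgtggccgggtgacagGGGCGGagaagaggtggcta
Mrpl34: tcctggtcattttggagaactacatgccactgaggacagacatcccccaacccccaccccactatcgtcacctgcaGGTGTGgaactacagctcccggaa
Gse1: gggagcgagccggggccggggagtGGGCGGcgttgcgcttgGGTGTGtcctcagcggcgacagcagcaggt

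In Dnajb5, a co-chaperone gene, 2 cores in the reverse direction overlap 2 NFY boxes in a single stretch 10 to 25 bases upstream of the summit. In Gse1, which encodes a coiled-coil protein, the core is centred 6 bases upstream of the summit, and in Mrpl34, which encodes a mitochondrial ribosomal protein, 29 bases downstream. Fold enrichment, the authors' ratio of the ChIP signal at the summit to its local background, was 10.1 (95% Poisson interval 7.72 to 13.0) at Dnajb5, 9.92 (7.79 to 12.5) at Mrpl34 and 8.83 (6.83 to 11.2) at Gse1. It was 42.6 at Cacna1c and between 13.9 and 17.0 at the other 5 promoters without the core. A match is a description of letters, and its absence from so short a run says nothing of binding.

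Counted over all shared promoters that matched a promoter sequence, the T-box core stood at about the same share with and without TBX3 overlap. The window here was 250 bases before to 50 after the start, read on both strands, and 806 shared and 874 unshared peaks matched one. The core was present in 175 of the 806 shared promoters (21.7%, exact binomial 95% interval 18.9 to 24.7) and in 165 of the 874 others (18.9%, 16.3 to 21.6). It was present in 18.4% of all 21238 promoters of the table. The difference of 2.83 percentage points had an interval from -1.01 to 6.69, so that none was detectable with these numbers. The 8-letter element AGGTGTGA, which contains the core, was rare, at 1.74% of shared promoters, 1.49% of unshared ones and 1.15% of all.

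Close to the summit the share with the core was higher than in a fixed window of all promoters, in both groups. Within 50 bases on either side of the summit it was found in 32 of 308 shared promoters (10.4%, 7.22 to 14.3) and in 29 of 260 unshared ones (11.2%, 7.60 to 15.6). Bases 150 to 51 before the start, a window of the same length, held it in 6.96% of all promoters (6.62 to 7.31). The lower bound of the shared promoters, 7.22%, lay just above that value and inside its interval. The fixed window is matched to the summits neither in position nor in content of G and C. In the same comparison the GC box stood at 45.1% of shared and 43.1% of unshared promoters against 25.2%. The ETS letters CCGGAAGT stood at 4.22% and 5.00% against 1.22%, and the GATA letters AGATAA at 1.62% and 1.92% against 3.44%. Across 5 groups of rising fold the share of shared promoters with the core anywhere in the window was 18.1%, 22.2%, 25.5%, 21.3% and 22.0%, without a steady order.

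The shared promoters were rich in G and C. Their median GC content was 65.3% (order-statistic 95% interval 64.7 to 66.3), against 62.7% (62.0 to 63.7) in the unshared promoters and 56.3% in all promoters of the table. The median ratio of observed to expected CpG, which is high in CpG islands, was 0.849 in shared, 0.815 in unshared and 0.567 in all promoters. By background group, described below, the GC medians were 58.3% in both kinds at the lowest background, 62.7% against 62.3%, 65.3% against 62.3%, 66.3% against 66.0%, and 68.7% against 65.7% at the highest. The CpG ratio of shared promoters was below that of unshared ones in the 2 groups of lowest background (0.627 against 0.668 and 0.793 against 0.808) and above it in the other 3. The GC box was present in 73.6% of shared and 69.1% of unshared promoters, a difference of 4.47 points (0.13 to 8.76), against 46.2% of all. Among the shared promoters the CpG ratio was 0.879 in the group of lowest fold and 0.766 (0.705 to 0.824) in that of highest fold. The group of highest fold thus had the lowest median CpG ratio. Since the median ratio of shared promoters was also 0.627 at the lowest and 0.885 at the highest background, this order was not tested at matched background.

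The other motifs searched in the same window were mostly alike in both groups. The GATA site AGATAA, bound by cardiac partners of TBX5 such as GATA4, was present in 4.96% of shared and 6.64% of unshared promoters and in 9.65% of all. Among shared promoters it was most frequent in the group of highest fold, at 12.1% (7.09 to 18.9), against 1.90% to 6.32% in the other 4 groups. Unshared promoters had the same order at the top, with 14.7% in their group of highest fold. The full CRE site TGACGTCA of CREB and ATF factors differed between the groups, at 2.36% (1.43 to 3.66) of shared and 4.81% (3.49 to 6.44) of unshared promoters, a difference of -2.45 points (-4.28 to -0.66). All promoters of the table held it in 2.24%, a share close to that of the shared promoters. The TATA letters TATAAA were found in 4.59% of shared and 7.44% of unshared promoters and in 12.6% of all, a difference of -2.85 points (-5.14 to -0.56). These intervals are not adjusted for the 14 motifs searched. Shares of the ETS site CCGGAAGT (6.70% and 7.32%), the YY1 site AAGATGGC (3.97% and 3.89%), the NFY box (21.8% and 20.7%), the NRF1 site (1.61% and 1.49%), the TEAD core (11.2% and 14.0%), the NK homeobox core AAGTG (40.0% and 38.2%), the MEF2 form TATTTATA (0.993% and 0.458%) and the E2F form TTTCGCGC (0.496% and 0.915%) had intervals that overlapped between shared and unshared promoters.

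The median fold was nearly the same in shared and unshared peaks, and the local background and the width were higher in shared ones. The median fold was 4.35 (4.21 to 4.39) in shared peaks, with a range from 2.11 to 42.6, and 4.41 (4.36 to 4.49) in unshared ones, with a range from 2.20 to 50.4. The median summit pileup, which counts the ChIP fragments of both replicates there, was 24 (24 to 25) in shared and 22 (21 to 22) in unshared peaks. The median background at the summit was 4.94 (4.70 to 4.94) against 4.24 (4.08 to 4.24) fragments, and the median width 263 bp (256 to 268) against 238 bp (233 to 242). Shared peaks therefore had more fragments in both the ChIP and the background. A fold of at least 10 was reached by 50 shared peaks (3.73%, 2.78 to 4.89) and 81 unshared ones (5.18%, 4.13 to 6.40), with overlapping intervals. Among peaks of middle width the median folds were farther apart, at 4.26 (4.19 to 4.37) in shared and 4.55 (4.41 to 4.64) in unshared peaks.

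**Figure D1:**
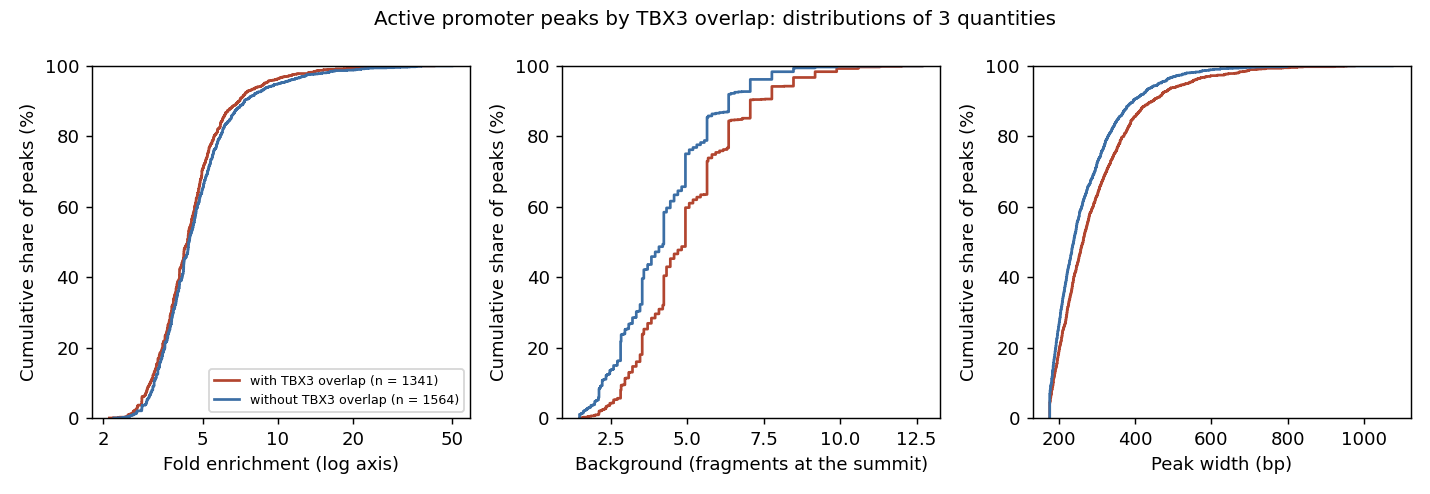
Cumulative share of active promoter peaks (vertical axis, percent) by fold enrichment on a log axis, by background in fragments and by peak width in bp, for the 1341 peaks with TBX3 overlap (red) and the 1564 without (blue). The fold curves nearly coincide, with medians of 4.35 and 4.41, whereas the background and width curves of the shared peaks lie to the right, with medians of 4.94 against 4.24 fragments and 263 against 238 bp.

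The share of active promoter peaks with TBX3 overlap moved most with the background. In 5 groups of rising background, of 357 to 798 peaks because of ties, it was 29.4% (25.7 to 33.2), 41.3%, 48.4%, 52.9% and 61.1% (57.0 to 65.2). By width it went from 37.6% of the narrowest to 56.6% of the widest group, and by pileup from 30.6% of the lowest to 54.9% of the highest. By fold it was 49.6% in the lowest and 41.8% in the highest group. Width kept its relation inside each background group, since the wider peaks had the higher share in all 5, such as 34.8% against 24.8% at the lowest background and 65.5% against 55.6% at the highest. Background and width thus moved with the TBX3 overlap, and their part in it was not tested.

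**Figure D2:**
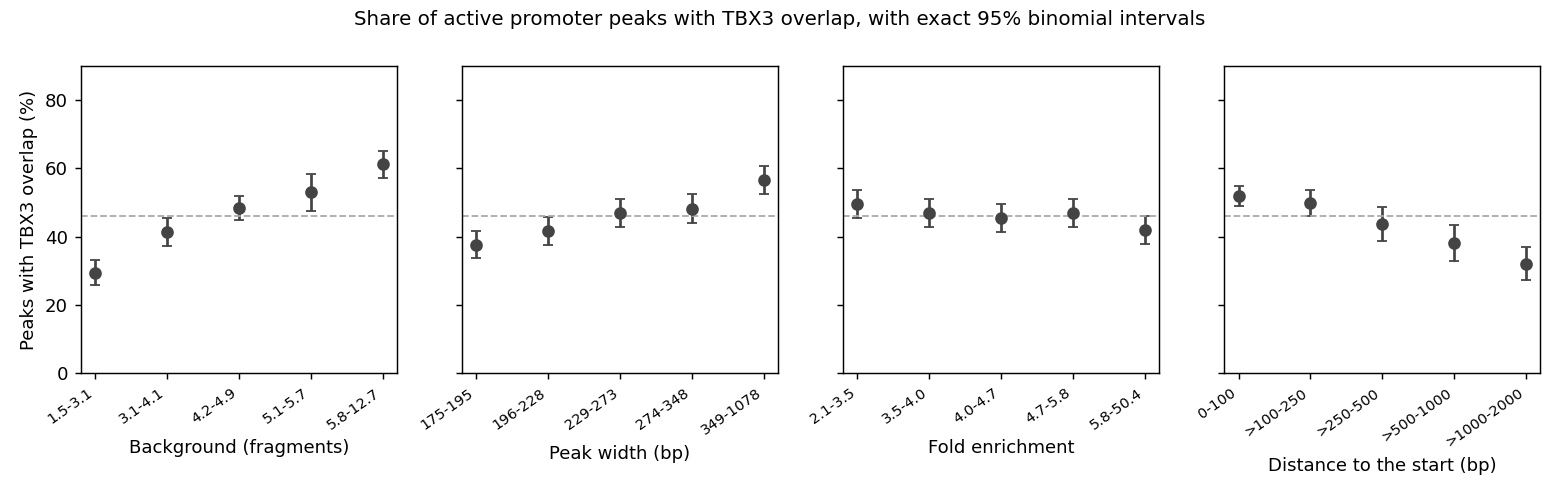
Share of active promoter peaks with TBX3 overlap (vertical axis, percent) in 5 groups each by background, width, fold and distance of the summit to the start; points are shares, bars exact 95% binomial intervals and the dashed line the share over all 2905 peaks, 46.2%. The share goes from 29.4% to 61.1% with background and from 52.0% to 32.0% with distance, and changes least with fold.

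Within groups of like background the order of the folds was the reverse of the pooled one in 4 of 5 groups. Shared peaks had a median fold of 5.08 against 4.72 in the second group, 4.37 against 4.20 in the third, 3.91 against 3.76 in the fourth and 3.47 against 3.32 in the group of highest background. In the group of lowest background it was 5.34 (5.04 to 5.75) against 5.50 (5.37 to 5.75). In the second group the intervals touched without crossing, with 4.85 to 5.30 for shared and 4.63 to 4.85 for unshared peaks, and in the other groups they overlapped. The slightly lower median fold of shared peaks over all peaks, where intervals overlapped too, recurred only in the group of lowest background.

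Shared summits lay closer to the start. The median distance was 123 bp (112 to 136) against 182 bp (167 to 204) in unshared peaks. Within 100 bp lay 585 of the 1341 shared summits (43.6%, 40.9 to 46.3) and 34.6% (32.2 to 37.0) of the unshared ones. Beyond 1000 bp lay 8.65% (7.20 to 10.3) of the shared and 15.8% (14.0 to 17.7) of the unshared summits. Read the other way, TBX3 overlap was found in 52.0% of peaks within 100 bp of a start and in 32.0% of those from 1000 to 2000 bp. In 4 of the 5 background groups the shared summits also had the lower median distance, with 230.5 against 438 bp at the lowest background, 142 against 223 bp, 114 bp (99 to 130) against 164.5 bp (132 to 193), and 105 against 124 bp. At the highest background the medians were 105 bp (91 to 126) and 102 bp (91 to 125). The intervals overlapped in every group except the third.

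Other features of position did not separate the groups. Summits lay upstream of the start in 54.7% of shared and 52.4% of unshared peaks. Another TBX5 summit stood within 10 kb of 35.6% of shared and 35.7% of unshared peaks, and a non-promoter TBX5 peak with TBX3 overlap within 10 kb of 5.82% and 5.69%. Among peaks matched to a start, 9.98% of shared and 8.36% of unshared ones had a divergent protein-coding start within 1 kb upstream. All these intervals overlapped.

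H3K4me1, which the active promoter class does not use, was less frequent in shared peaks. It was present in 462 of them (34.5%, 31.9 to 37.1) and in 649 unshared peaks (41.5%, 39.0 to 44.0), a difference of -7.04 points (-10.5 to -3.50). By background group, the shares were 59.2% against 59.1% in the group of lowest background, 41.1% against 49.0%, 32.4% against 33.7%, 29.1% against 26.2%, and 22.8% against 22.9% in the highest. The second group thus differed about as much as all peaks together, and the others less. Within 100 bp of the start it was 28.5% against 27.9%, and from 1000 to 2000 bp 62.9% (53.5 to 71.7) against 74.1% (68.2 to 79.4). Intervals of shared and unshared peaks overlapped in all 5 background groups and all 5 distance classes. By width and by fold the share was lower in shared peaks in all 5 groups of each. In the middle group of width the intervals did not overlap, at 27.2% (22.0 to 32.8) against 44.2% (38.6 to 49.9). In the other groups of width and of fold they did.

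Shared peaks with H3K4me1 had a higher fold than those without. Their median fold was 4.71 (4.51 to 4.84) against 4.18 (4.04 to 4.21), and 7.79% of them reached a fold of at least 10 against 1.59%. By fold the H3K4me1 share of shared peaks was 22.6% (17.9 to 27.8) in the lowest group and 52.9% (46.4 to 59.3) in the highest, and for unshared peaks it was 28.0% and 64.1%. Peaks with H3K4me1 also lay farther from the start, at a median of 171 bp against 107 bp among shared peaks. From the lowest to the highest background group of shared peaks, the H3K4me1 share went from 59.2% to 22.8%. The median fold went from 5.34 to 3.47 and the median pileup from 19 to 28 fragments. Whether peaks with H3K4me1 had the higher fold at matched background was not tested. Of the marks that define the class, all 3 were present at 94.5% of shared and 87.2% of unshared peaks. H3K9me3, a mark of heterochromatin, was present at 0 of the 1341 shared and 0 of the 1564 unshared peaks. Among promoter peaks only the repressed class held it, at 1 of 54, so the class itself may fix these 0 counts.

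**Figure D3:**
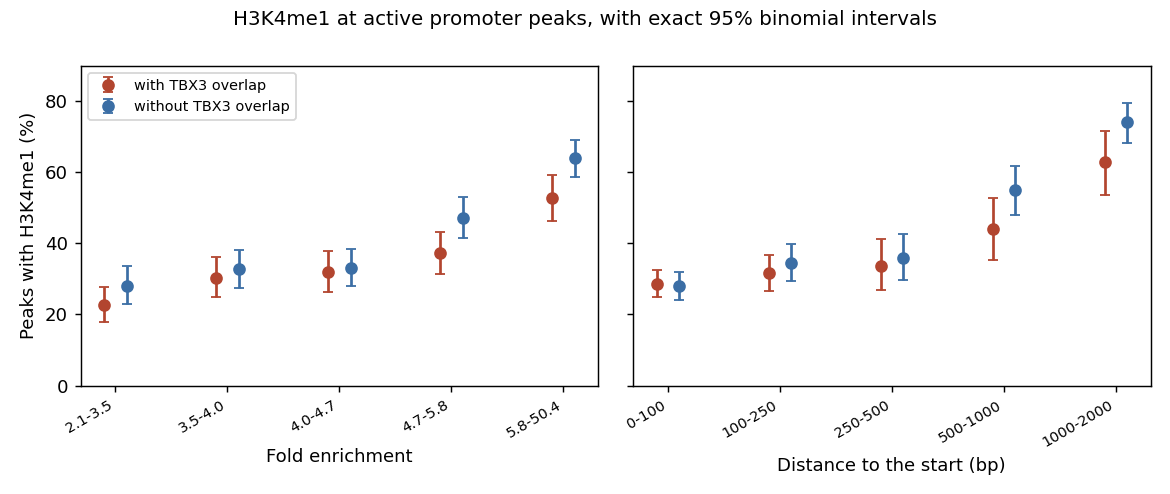
Share of active promoter peaks with H3K4me1 (vertical axis, percent) in 5 groups of fold enrichment and in 5 classes of distance to the start, for peaks with (red) and without (blue) TBX3 overlap; bars are exact 95% binomial intervals. The share of shared peaks goes from 22.6% to 52.9% with fold and from 28.5% to 62.9% with distance.

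Chromosome X stood apart from the autosomes. Only 6 of its 49 active promoter peaks overlapped a TBX3 region (12.2%, 4.63 to 24.8), against 46.7% (44.9 to 48.6) on the autosomes, which ranged from 40.1% on chromosome 8 to 53.4% on chromosome 19. The active non-promoter peaks had the same order, with 7 of 55 on X (12.7%, 5.27 to 24.5) and 28.2% on the autosomes. The median background on X was 2.12 fragments against 4.33. Among active promoter peaks of the lowest background group alone, 5 of 41 on X (12.2%, 4.08 to 26.2) and 30.7% (26.8 to 34.7) on the autosomes overlapped TBX3, so the difference was seen there too. Smpx, a muscle gene encoding a small muscle protein, held a shared peak on X.

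**Figure D4:**
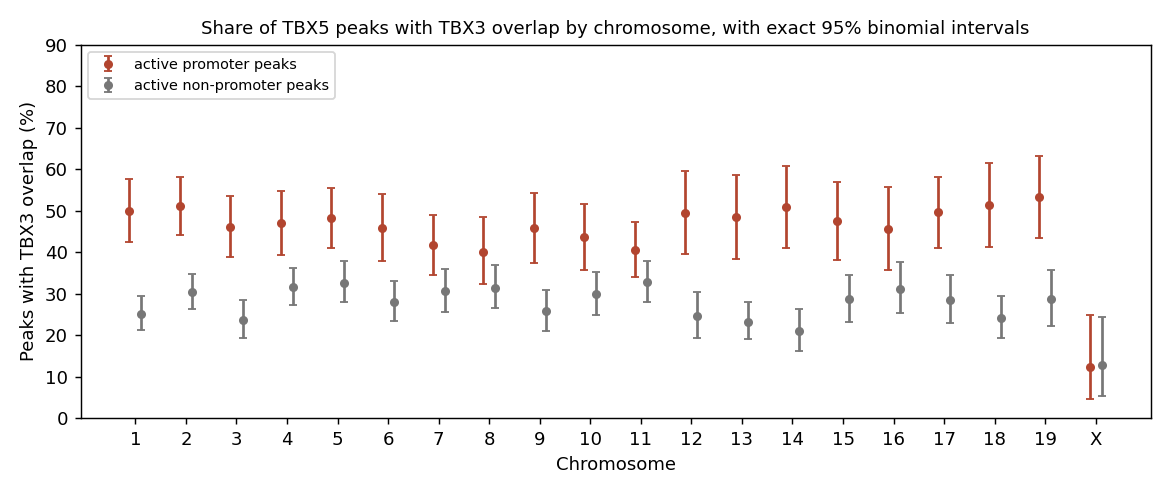
Share of TBX5 peaks with TBX3 overlap (vertical axis, percent) on each chromosome for active promoter peaks (red) and active non-promoter peaks (grey), with exact 95% binomial intervals. Chromosome X lies lowest in both classes, at 12.2% and 12.7%, and the autosomes lie between 40.1% and 53.4% for active promoters.

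Compared with peaks away from starts, promoters overlapped TBX3 more often. The share was 46.2% of active promoter peaks, 28.0% (26.9 to 29.2) of active non-promoter peaks, 10.04% of poised non-promoter peaks and 5.56% (1.53 to 13.6) of the 72 promoter peaks without any class-defining mark. Shared non-promoter peaks of the active class had a median fold of 5.93 (5.74 to 6.09), against 4.35 in shared promoter peaks, at the same median pileup of 24 fragments and a lower background of 2.97 against 4.94. The unshared peaks had the same order, with a median fold of 4.41 at promoters and 6.27 elsewhere, backgrounds of 4.24 and 2.72 and a pileup of 22 in both, so that this is no feature of the shared promoters alone.

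Most of the 1341 shared peaks could be assigned to a gene. A RefSeq start at the authors' distance, within 5 bases, was found for 972, the nearest protein-coding gene end within 2 kb was taken for 303, and 66 were assigned to none. Protein-coding genes took 1215 peaks, which stood at 1148 genes, or 5.31% of the 21631 protein-coding genes considered. Any active promoter peak stood at 2263 genes (10.5%), so 50.7% of genes with such a peak had a shared one. Of these 2263 genes 261 had at least 2 active promoter peaks, and 141 had both a shared and an unshared peak. In those 141 the stronger peak was the shared one in 68 and the peak closest to its start was the shared one in 86. An assigned gene is named for where the peak lies, whether or not the peak regulates it.

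The 12 strongest shared peaks mostly lay away from the start, and those of at least 10-fold less so. Cacna1c, the pore subunit of the cardiac L-type calcium channel, had the highest fold of all shared peaks, 42.6 (36.7 to 49.2), from 184 fragments over a background of 3.34, at chr6:119196330-119197252, 226 bp upstream of a start. The next had 30.5-fold (25.6 to 36.0) at chr11:69559112-69559564 by Efnb3, an ephrin ligand, 884 bp downstream of a start, and 29.4-fold (24.5 to 35.1) at chr6:17065474-17065937 by Tes, a focal adhesion protein, 550 bp downstream of a start. Of the 12 shared peaks of highest fold, 9 had H3K4me1 and 8 lay beyond 500 bp of the start. Of all 50 with a fold of at least 10, 36 had H3K4me1 and 22 lay beyond 500 bp. The corresponding counts among the 81 unshared peaks of such a fold were 62 and 40.

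The remaining 9 of the 12 had folds between 18.5 and 27.5. They stood near Mir7052 (25.6-fold), Mir1b (21.8), Tsc22d1 (21.8), 1700096K18Rik (19.6), Sh3rf2 (19.3), Pop7 (19.1) and Gm16863 (18.5), and 2, at chr17:15058200-15058671 (27.5) and chr19:56378493-56379192 (22.0), had no gene assigned. Mir1b belongs to the miR-1 family of heart and skeletal muscle, and its peak at chr18:10784230-10784626 lay 1034 bp from the start of the hairpin. Tsc22d1 is a transcriptional regulator induced by TGF-beta, and Pop7 is a subunit of RNase P. At the other end of the range stood Yy1 at 2.11-fold (1.43 to 3.02), Proser1 at 2.19 (1.46 to 3.18) and Ppp1r12a at 2.30 (1.50 to 3.37). These last 3 had 24 to 28 fragments over a background of 9.89 to 12.7, far above the median background of 4.94. At the median stood Gtf2e1, Vaultrc5 and Dusp2, each with 4.35-fold from 20 fragments. The unshared peaks of highest fold were an unassigned one at chr15:98607268-98607892 (50.4), Prrx2 (37.6) and 2010310C07Rik (37.5).

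Genes known as TBX3 or TBX5 targets in the working chambers divided between the groups. Of 24 such genes 5 had a shared peak (20.8%, beside 5.31% of all protein-coding genes), namely Cacna1c, Smpx, Tnnt2, Cdkn1a and Ryr2. Genes with only unshared ones included Nppa and Myh6. Only 8 of the 24 had any active promoter peak. The shared ones made up 62.5% of these 8 (24.5 to 91.5), an interval that holds the 50.7% of all genes with such a peak. Nppa, which encodes atrial natriuretic peptide and is repressed by TBX3 in the conduction system, had a 9.93-fold unshared peak (7.44 to 13.0). Smpx had an 11.4-fold shared peak (7.96 to 15.9) 1087 bp upstream of the start and a 5.13-fold unshared peak (3.01 to 8.25) 7 bp from it. Tnnt2, cardiac troponin T, showed the same arrangement, with a 7.49-fold shared peak (5.10 to 10.7) at chr1:135834284-135834567, 1910 bp upstream, and a 16.7-fold unshared peak (13.5 to 20.5) 87 bp upstream. In these 2 genes the TBX3 overlap was at the distant peak and not at the one next to the start. Cacna1c had the other order, with its shared peak 226 bp and an unshared peak 739 bp from the same start. Another unshared peak of Cacna1c, at chr6:119109237-119109443, lay 797 bp from a different start. Ryr2, the calcium release channel, had a weak shared peak of 2.98-fold (1.93 to 4.40) 66 bp from the start, and Cdkn1a, a cell cycle inhibitor, one of 4.94 (3.36 to 7.03). Bmp10, a growth factor of the trabeculae and atria, had a 5.30-fold peak in the repressed promoter class without TBX3 overlap.

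Among the T-box genes themselves 1 of 17 had a shared peak (5.88%, beside 5.31% of all protein-coding genes). It was Tbx20, a cardiac T-box factor, with 3.31-fold (1.91 to 5.40). Tbx3 and Tbx18 had unshared active promoter peaks of 5.28-fold and 3.31-fold.

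Most of the cardiac transcription factors, chromatin regulators and signalling genes with an active promoter peak had a shared one, as did 50.7% of all genes with such a peak. In each list the count is to be read beside that 50.7%. It lay inside the interval of each of these lists except the chromatin regulators. Of 35 cardiac transcription factors 10 had a shared peak and 4 only unshared ones (71.4%, 41.9 to 91.6, of those with a peak). Mef2a, a MADS-box activator of muscle genes, led with 17.1-fold (14.3 to 20.4) at chr7:67372663-67373487. Meis2, a homeobox cofactor, followed with 9.11 (7.07 to 11.5), Gata4, a zinc finger partner of TBX5, with 5.61 (3.45 to 8.70) and Hey2, a repressor of the ventricular compact layer, with 5.07. Their median highest fold was 4.85, against 4.35 over all genes with a shared peak.

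Chromatin regulators had 12 of 34 genes with a shared peak and 3 with only unshared ones (80.0%, 51.9 to 95.7). All were of low fold, with a median of 4.12 and a highest of 5.45 (3.57 to 8.01) at Chd7, the chromatin remodeller of CHARGE syndrome. Smarcd3, the cardiac subunit of the BAF remodelling complex, had 4.82 (3.36 to 6.71), Eed, a Polycomb subunit, 4.76 (3.34 to 6.59), and Ep300, a histone acetyltransferase, 4.37 (2.89 to 6.38). The lower bound for chromatin regulators, 51.9%, lay just above the 50.7% of all genes, and that for cardiac transcription factors below it, with no adjustment for the 26 lists.

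Genes of BMP and TGF-beta signalling had 9 of 33 shared and 3 only unshared (75.0%, 42.8 to 94.5). The shared ones were the receptor genes Bmpr1a (4.94-fold), Bmpr2, Acvr2a (5.62-fold, 3.62 to 8.39), Acvr2b, Tgfbr2 and Tgfbr3 and the genes of the mediator Smad5 (5.10-fold) and of the inhibitors Smad6 (5.07-fold) and Smad7. No ligand gene of the list had an active promoter peak of either kind, and the genes with only unshared ones were Acvr1, Smad2 and Ltbp1. Notch, Wnt and Hippo genes had 8 shared and 4 only unshared of 38 (66.7%, 34.9 to 90.1, of those with a peak). Ccn2, a matricellular target of TEAD and YAP, had 10.7-fold (7.73 to 14.5), Maml3, a Notch coactivator, 8.16 (5.78 to 11.2), Lrp6, a Wnt co-receptor, 6.18 (4.15 to 8.89), and Ccn1, another matricellular protein, 5.31 (3.48 to 7.80). The strongest Ccn2 peak was an unshared one, of 35.7-fold (30.8 to 41.2) and 1693 bp upstream of the start.

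Muscle and metabolic genes had both kinds of peak. Sarcomere genes had 7 of 32 shared and 10 only unshared, and apart from Tnnt2 the strongest shared were Unc45b, a myosin chaperone (6.50-fold, 4.51 to 9.09), Actc1, cardiac actin (4.96, 3.28 to 7.24), and Smyd1, a muscle methyltransferase (4.71, 2.85 to 7.38). Calcium handling genes had 6 of 22 shared and 5 only unshared. Beside Cacna1c stood Cacnb2, the auxiliary beta subunit of the same channel, with 11.9-fold (8.98 to 15.5) 908 bp upstream, then Camk2d, a calcium-dependent kinase, with 4.36. Thus both the pore and the beta subunit genes of the L-type channel had shared peaks of over 10-fold. Fatty acid and energy genes had 9 shared and 5 only unshared of 38, led by Acadl, an acyl-CoA dehydrogenase (7.42-fold), Hk1, hexokinase (7.07), Cpt1b, the muscle carnitine transferase (7.06), and Ppargc1b, a coactivator of mitochondrial genes (5.38). Of the conduction and ion channel genes 0 of 32 had a shared peak, beside 5.31% of all protein-coding genes. Only 3 of the 32, Kcnh2, Kcnj11 and Kcnk3, had any active promoter peak, so the share was 0 of 3 (interval 0 to 70.8%). Cacna1c and Cacnb2 also encode channel subunits but were counted under calcium handling.

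Speg, a muscle kinase gene of the triad, was the gene with 3 shared peaks. They had 17.0-fold (13.8 to 20.8) at chr1:75399710-75400121, 5.08-fold (3.26 to 7.57) at chr1:75398854-75399070 and 4.03-fold (2.41 to 6.40) at chr1:75375099-75375344, close to more than 1 start of the gene. All 3 had H3K4me1. Stress genes had 5 shared and 3 only unshared of 36, with Hspb7, a small heat shock protein of the heart, at 15.3-fold (11.3 to 20.2), 646 bp upstream, and Ddit3, a stress transcription factor, at 5.41.

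Among lists of general cell functions, more genes had only unshared peaks than a shared one in 6 of 7 lists. The interval of the shared share included the 50.7% of all genes with a peak in each of the 7. Any active promoter peak stood at 11 of 81 cytosolic ribosomal to 14 of 40 splicing genes, beside 10.5% of all protein-coding genes. Cytosolic ribosomal protein genes had 3 shared (Rpl3 with 10.5-fold, Rpl37 with 5.82 and Rpl27 with 4.09) and 8 only unshared of 81. Mitochondrial ribosomal protein genes had 5 and 8 of 78, led by Mrpl34 and Mrps16 (6.58), and respiratory chain and ATP synthase genes 4 and 10 of 87, with Atp5j highest at 5.01. Translation factors had 2 and 9 of 69, and 1 of the shared genes is Eef2kmt, a methyltransferase that the list holds by its name. Of the genes with a peak in these 4 lists, the shared ones made up between 18.2% (2.28 to 51.8) for translation factors and 38.5% (13.9 to 68.4) for mitochondrial ribosomal proteins, with intervals that reach 50.7% in all 4. Splicing factors had 6 and 8 of 40 (42.9% shared of those with a peak, 17.7 to 71.1). Cell cycle genes had 6 and 6 of 37 (50.0%, 21.1 to 78.9), with Ccne2 at 7.37-fold and Ccna2 at 5.26. Proteasome and ubiquitin genes had 2 and 5 of 35 (28.6%, 3.67 to 71.0), with Psma7 at 3.54. Chromatin regulators, given above and not among these 7 lists, went the other way, with 12 shared and 3 only unshared.

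**Figure D5:**
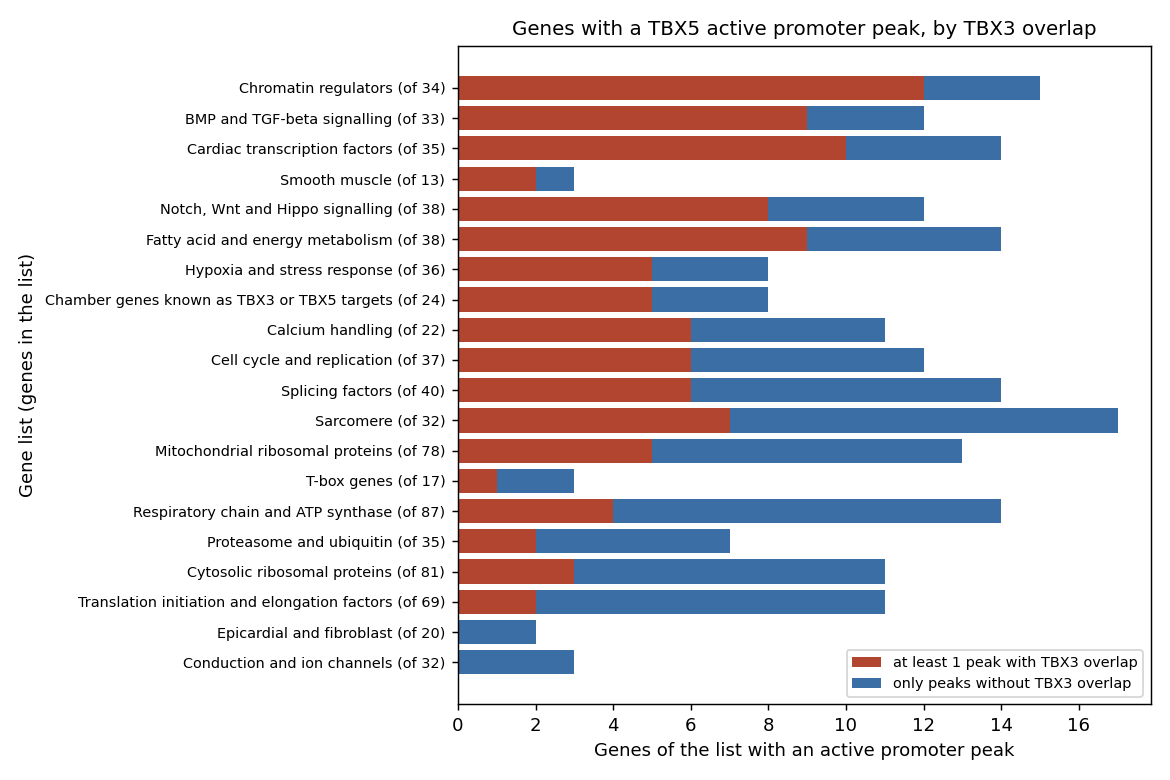
Number of genes of each list with an active promoter peak, with at least 1 shared peak (red) or only peaks without TBX3 overlap (blue); list sizes stand in parentheses and lists without any such peak are left out. Chromatin regulators have 12 genes in red and 3 in blue, and translation factors 2 and 9.

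Of the sarcomere genes 17 of 32, such as Tnnt2, Actc1 and Myh6, had an active promoter peak, beside 10.5% of all protein-coding genes. The marker genes of most other cell types had none. Of 20 endothelial, 19 blood, 24 neuronal, 23 hepatocyte and 24 keratinocyte genes and 1459 olfactory and vomeronasal receptor genes, 0 had one. The class requires an active mark, so a gene whose start lacks one could not be counted. At 10.5% a list of 19 to 24 genes would hold few in any case. Epicardial and fibroblast genes had 0 shared and 2 unshared of 20. Smooth muscle genes had 2 shared, Des (5.55-fold), which encodes desmin and is also expressed in heart muscle, and Cspg4 (4.20), and 1 unshared of 13. Chromatin of all cells of the heart was pooled, so that weaker binding and fewer binding cells cannot be told apart.

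Starts of miRNA hairpins were the assigned start of 15 shared peaks. Besides Mir7052 and Mir1b these included Mir5616 (14.0-fold), Mirlet7i with 2 peaks (5.34 and 4.61), Mir17 (3.90), of the Mir17 cluster that acts in the growth of the embryonic heart, and Mir210 (2.74), which hypoxia induces. Hairpins are often inside the transcript of a host gene, so the assigned start is that of the hairpin and not necessarily of its promoter. The unshared peaks had 13 such assignments. Long noncoding RNA genes took 43 of the 1341 shared and 68 of the 1564 unshared peaks.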

How the data were processed

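TBX5 ChIP-seq was measured in 2 replicates and 1 input sample of mouse hearts, read as single ends of 50 bases. Bowtie2, SAMtools, MACS2 and ChIPseeker and the mm10 build are named in the submitters' processing notes, without versions or settings. The deposited peaks come from 1 call on pooled samples, per the file headers and names. Fold enrichment (a ratio), −log10 p, −log10 q and the score are the authors' deposited values per peak, used to describe and rank peaks within this list. Overlap with 6 histone marks and with TBX3 regions is a deposited yes or no, and a mark with 2 region files counted if either marked the peak.

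The sources used here give no read depth per sample. Pileup and background were solved from the fold, (pileup + 1)/(background + 1), and −log10 p as an upper Poisson tail, and a whole-number pileup matched within 0.0005 for all 12436 peaks (largest misfit 0.000242). A fold's interval is the exact 95% Poisson interval of its pileup at a fixed background. Shares have exact Clopper-Pearson intervals, medians order-statistic intervals and differences of shares Newcombe intervals, all 95%. They cover counting error only. On simulated data the pileup was recovered in 500 of 500 peaks, the true median lay in its interval in 95.3% of 1000 runs and 300 of 300 planted summits were assigned to their gene.

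Genes and promoters are those of RefSeq GRCm38.p6, coordinates 1-based. Of the gene list entries 2 (Ahsp and Tf) matched no symbol. Named peaks are the 12 shared ones of highest fold, the 3 nearest the median, the 3 of lowest fold, the up to 4 strongest shared genes of each list, every gene of the chamber target and T-box lists with an active promoter peak, genes with 3 shared peaks and the 3 strongest unshared peaks. Some genes that this rule takes are not reported here. Peaks, lists and rules were chosen with earlier results of these data known. Alternatives varied the q and fold minimum, distance, width, background, mark files, motif, gene assignment and chromosome X. Versions were numpy 2.4.6 and scipy 1.17.1 under Python 3.11.15, with pandas 2.3.3 for tables and matplotlib 3.10.9 for plots.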

Additional observations from a re-analysis of the deposited data

How the results depend on the processing

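With −log10 q of at least 10 the median fold was 6.48 in shared and 7.06 in unshared peaks, the width 347 and 314 bp and the distance 141 and 265 bp. Only summits within 500 bp gave a fold of 4.21 in both groups and a TBX3 share of 49.8%. A fold of at least 5 gave a share of 41.9%. Peaks of middle width gave a fold of 4.26 in shared and 4.55 in unshared peaks and an H3K4me1 share of 31.5% and 40.6%. At middle backgrounds, an alternative chosen after seeing the data, the fold was 4.51 in shared and 4.32 in unshared peaks, the reverse of the order over all peaks, and 37.7% of unshared peaks had H3K4me1. Where both region files had to mark a peak, H3K4me1 stood at 16.7% of shared and 24.5% of unshared peaks. The T-box share was 1.74% and 1.49% with the longer element and 25.6% and 24.1% with the summit inside the window. Genes with a shared peak numbered 271 with −log10 q of at least 10, when 263 had only unshared ones. Of the 26 list counts 17 moved there, with chromatin regulators at 2 shared and 1 unshared and BMP and TGF-beta genes at 0 and 1. Assignment by distance alone moved 3 shared counts (splicing 6 to 2, mitochondrial ribosomal 5 to 2, cell cycle 6 to 3), and assignment within 500 bp moved 3 (respiratory chain 4 to 1, cell cycle 6 to 3, translation factors 2 to 1). The cause was not tested.

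No paired analysis was possible because the replicates were pooled before peaks were called, and for the same reason no replicate could be left out. Limits are the single call, the unnamed source of the TBX3 and histone regions and the depth: a median pileup of 24 fragments leaves wide intervals on single folds, and binding below the authors' threshold was not detectable.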
